A study of Mus musculus with 18 samples.

Results

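The ETS family of transcription factors was followed through 10 of its genes, Etv1, Etv4, Etv5, Ets1, Ets2, Elk1, Elk3, Elk4, Etv6 and Erf, in newly made RNA of mouse embryonic stem cells. The genes were chosen by name from the 25897 gene symbols of the deposited count table, with earlier results of these data known. All 10 were in the table, and all 10 were among the 14128 genes that passed the filter on low counts. Their counts in the 18 libraries ran from 30, for Ets1 in knockout cells at 8 h, to 5063, for Etv5 in rescued cells at 8 h.

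All cells were E14tg2a embryonic stem cells of 129SV background that had lost endogenous Med24, part of the tail of Mediator, the complex that connects transcription factors with RNA polymerase II. All carried a doxycycline-controlled cDNA for FLAG-tagged Med24, and all expressed cRAF-ErT2, a RAF kinase that 4-hydroxytamoxifen (4OHT) switches on and that then activates ERK. Cells labelled WT, called rescued here, were kept with 500 nM doxycycline, and cells labelled KO, called knockout here, were kept without it. Doxycycline and Med24 therefore cannot be told apart. The culture medium held serum, LIF and 2 µM Chir99021, a GSK3 inhibitor, and was replaced 24 h ahead by serum and LIF with 250 nM PD173074, an inhibitor of FGF receptors. Cells received 250 nM 4OHT for 0, 2 or 8 h, and ethynyl uridine at 5 mM marked the RNA made over the last 15 min. Each of the 6 groups had 3 libraries, 1 each of the clones A, B and C, so that p-values measure the spread between libraries within groups. In that spread, clone and library preparation cannot be told apart, and the main fit did not use the clone letter. No group without PD173074, without the cRAF-ErT2 cassette or with intact endogenous Med24 was analysed here, so the rescued cells are a model of Med24 supplied from a cDNA and the 4OHT response is that of a RAF fusion under FGF receptor blockade.

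ETS factors bind DNA through a shared domain that recognises a GGAA core, and many of them are phosphorylated by ERK. Etv1, Etv4 and Etv5 form the PEA3 group, activators that are transcribed downstream of FGF and ERK signalling and are held down by the repressor Cic, which binds octamers of the TGAATGAA type. Elk1, Elk3 and Elk4 are the ternary complex factors, which sit with Srf on the promoters of immediate early genes. Elk1, once phosphorylated by ERK, contacts Mediator through its subunit Med23. Ets1 and Ets2 are activators with a pointed domain and an ERK site. Etv6 and Erf are repressors, and ERK moves Erf out of the nucleus.

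The promoter sequences below are shown because they hold the elements named above beside the starts of 4 genes whose transcription changed after 4OHT. Each is the 250 bases before a RefSeq start (GRCm38.p6), read 5′ to 3′ on the strand of the gene, and capitals mark GGAA cores on either strand and Cic-type octamers (TGAATG followed by a pair of purines). The Etv5 window (chr16:22438369-22438618, minus strand, intronic in GENCODE M21) precedes the RefSeq start that lies 1351 bases inside the gene. A second Etv5 window (chr16:22439571-22439820, minus strand), whose start lies 149 bases inside the gene, held 0 octamers and 0 GGAA cores and is not printed. The Etv1 window (chr12:38779832-38780081, plus strand) is intronic, the Elk4 window (chr1:132007370-132007619, plus strand) touches 13 bases of the first exon, and the Erf window (chr7:25250759-25251008, minus strand) touches 3.
Etv5: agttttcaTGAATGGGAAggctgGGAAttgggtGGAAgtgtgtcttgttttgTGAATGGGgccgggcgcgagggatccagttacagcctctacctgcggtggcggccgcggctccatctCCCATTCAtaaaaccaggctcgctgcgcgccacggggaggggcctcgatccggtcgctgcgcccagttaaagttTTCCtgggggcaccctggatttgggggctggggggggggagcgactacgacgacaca
Etv1: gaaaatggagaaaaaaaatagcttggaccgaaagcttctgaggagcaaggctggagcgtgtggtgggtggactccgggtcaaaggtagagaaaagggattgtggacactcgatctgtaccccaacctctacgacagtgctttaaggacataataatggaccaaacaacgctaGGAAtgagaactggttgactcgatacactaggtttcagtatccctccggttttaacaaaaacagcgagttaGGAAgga
Elk4: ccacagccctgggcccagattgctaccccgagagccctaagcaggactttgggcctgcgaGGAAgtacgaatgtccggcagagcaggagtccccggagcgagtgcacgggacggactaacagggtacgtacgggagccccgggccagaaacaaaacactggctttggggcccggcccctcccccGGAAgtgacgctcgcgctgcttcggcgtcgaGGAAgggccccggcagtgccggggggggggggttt
Erf: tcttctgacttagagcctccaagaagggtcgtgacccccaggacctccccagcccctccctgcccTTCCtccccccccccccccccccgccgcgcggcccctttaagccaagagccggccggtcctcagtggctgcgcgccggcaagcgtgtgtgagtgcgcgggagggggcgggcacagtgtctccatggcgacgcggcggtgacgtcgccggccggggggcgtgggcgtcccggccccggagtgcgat
The Etv5 window held 3 copies of TGAATGGG, which began 242 and 198 bases before the start on the strand of the gene and 131 bases before it on the opposite strand. The octamer that began at 242 overlapped a GGAA core. Among all 32851 RefSeq promoter windows of 300 bases (250 before to 50 after the start, both strands), TGAATGGG was in 1.08%, and it was in 3 or more copies in 1 window. TGAATGAA was in 1.30% of all windows, TGAATGGA in 1.21%, TGAATGAG in 1.20%, and any of these octamers in 4.60%. Counting any of these octamers, 19 windows held 3 or more. The search began with TGAATGAA and TGAATGGA, neither of which was in the 12 windows found for 8 members, and TGAATGAG and TGAATGGG were added after the Etv5 sequence had been seen. The printed Elk4 window held CCGGAA 68 to 63 bases before the start, a longer ETS match (containing a GGAA core). This match was in 14.9% of all windows and in no other member. Further Elk4 windows, with starts 495 and 738 bases inside the gene, lacked it and are not printed. A further Etv1 window, with its start 4331 bases inside the gene, is not printed either. GGAA alone was in 96.0% of all windows and in all 8 members. None of the 12 windows held an Srf-type CArG box, found in 1.63% of all windows, an AP-1 match TGANTCA, found in 7.81%, or a cAMP-response match TGACGTCA, found in 1.79%. The GC box GGGCGG was in 35.7% of all windows and in 7 of the 8 members. Etv4 and Ets1 had no entry.

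Library totals ran from 6691177 to 14541145 counts. Values are given as CPM, read counts relative to library size after scaling between libraries by the TMM method. Med24, the check of the labels, stood at 35.5 to 41.7 CPM in knockout and 515 to 602 CPM in rescued libraries at 0 h. At 2 h it stood at 43.1 to 49.2 and 1520 to 1775 CPM, and at 8 h at 34.0 to 42.8 and 399 to 407 CPM. The log2 difference between knockout and rescued cells came to -3.81, -5.14 and -3.35 at 0, 2 and 8 h. Newly made Med24 RNA in rescued cells thus changed with time of 4OHT, and its part in the differences at 2 and 8 h was not tested. Which part of the gene was removed is not given, so the reads left in knockout libraries may come from outside it. A set of 13 abundant genes that includes Cdk8 and Lars2 took 34.2% to 43.9% of the counts in 3 knockout libraries (2 h clone A, 8 h clones B and C) and 17.7% to 24.0% in the other 15. Without those 3 libraries knockout cells at 8 h are represented by clone A alone, whose spread is then taken from the other groups. Of 8 pluripotency markers all were detected, with a summed level of 1553 to 2323 CPM, of which 4 were lower and 1 higher at 2 h and 5 lower and 3 higher at 8 h against 0 h in rescued cells. In knockout cells 5 of these markers were lower and 2 higher at 2 h, and 2 were lower and 4 higher at 8 h. Nanog averaged 329.9, 78.0 and 19.8 CPM at 0, 2 and 8 h in rescued cells and 358, 138 and 70.6 CPM in knockout cells. Pou5f1 went the other way, at 174, 218 and 282 CPM in rescued and 192, 252 and 332 CPM in knockout cells. Fibroblast markers summed to 0.707 to 8.77 CPM, endothelial markers to 7.20 to 37.4 CPM and blood markers to 9.13 to 22.2 CPM, with Lum at 0 in every group for fibroblasts and Hba-a1 at 0 in every group for blood. Trophectoderm markers (7 genes, 6 of which passed the filter) summed to 95.5 to 98.4 CPM in rescued cells at 0 h, 411 to 430 CPM at 2 h and 569 to 609 CPM at 8 h, and in knockout cells to 133 to 146, 146 to 153 and 404 to 476 CPM. Most of this sum was Tead4, at means of 55.8, 309.5 and 491 CPM in rescued and 78.1, 82.2 and 357 CPM in knockout cells, while Cdx2, Elf5 and Eomes had means of 7.17 CPM or below in every group. Primitive endoderm markers (6 genes, 4 of which passed) summed to 9.97 to 14.5, 13.6 to 23.6 and 5.95 to 7.78 CPM in rescued cells at 0, 2 and 8 h and to 27.9 to 33.4, 27.4 to 33.9 and 17.97 to 22.4 CPM in knockout cells. The part of these marker levels and of the abundant genes in the ETS results was not tested except where a value without the 3 libraries is given. In bulk libraries a change in the number of cells of a type and a change in RNA per cell cannot be told apart.

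Before ERK activation the family spanned a wide range of levels. Per kilobase of exon, rescued cells at 0 h made most RNA from Etv5, at 57.9 ± 4.4 CPM per kb (SD, n = 3), followed by Erf at 27.4 ± 1.5 and Etv6 at 27.0 ± 2.0 CPM per kb. Elk4 stood at 5.49 ± 0.30, Ets2 at 4.07 ± 0.47, Elk3 at 3.98 ± 0.29 and Etv4 at 3.26 ± 0.40 CPM per kb. Elk1, at 2.23 ± 0.22, Etv1, at 1.27 ± 0.063, and Ets1, at 0.632 ± 0.022 CPM per kb, were the lowest. In this order Erf and Etv6 overlapped between libraries, as did Ets2 and Elk3 and, barely, Elk3 and Etv4, while the other neighbours did not overlap. By 8 h Etv4 had moved from the seventh place to the second, with 48.5 ± 2.4 CPM per kb behind Etv5 at 83.8 ± 2.9 and ahead of Etv6 at 39.0 ± 0.85. Below these Erf stood at 16.2 ± 0.53, Elk3 at 8.83 ± 0.35, Elk4 at 7.68 ± 0.18, and Ets2 at 3.62 ± 0.47 overlapped with Etv1 at 3.58 ± 0.13, above Elk1 at 1.53 ± 0.14 and Ets1 at 0.818 ± 0.16 CPM per kb. Whether reads in introns were counted is not given in the sources used here, and per kilobase of gene span Erf ranked 1 and Etv5 ranked 2 at 0 and 2 h, while at 8 h Etv5 ranked 3 behind Etv4 and Erf.

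**Figure D1:**
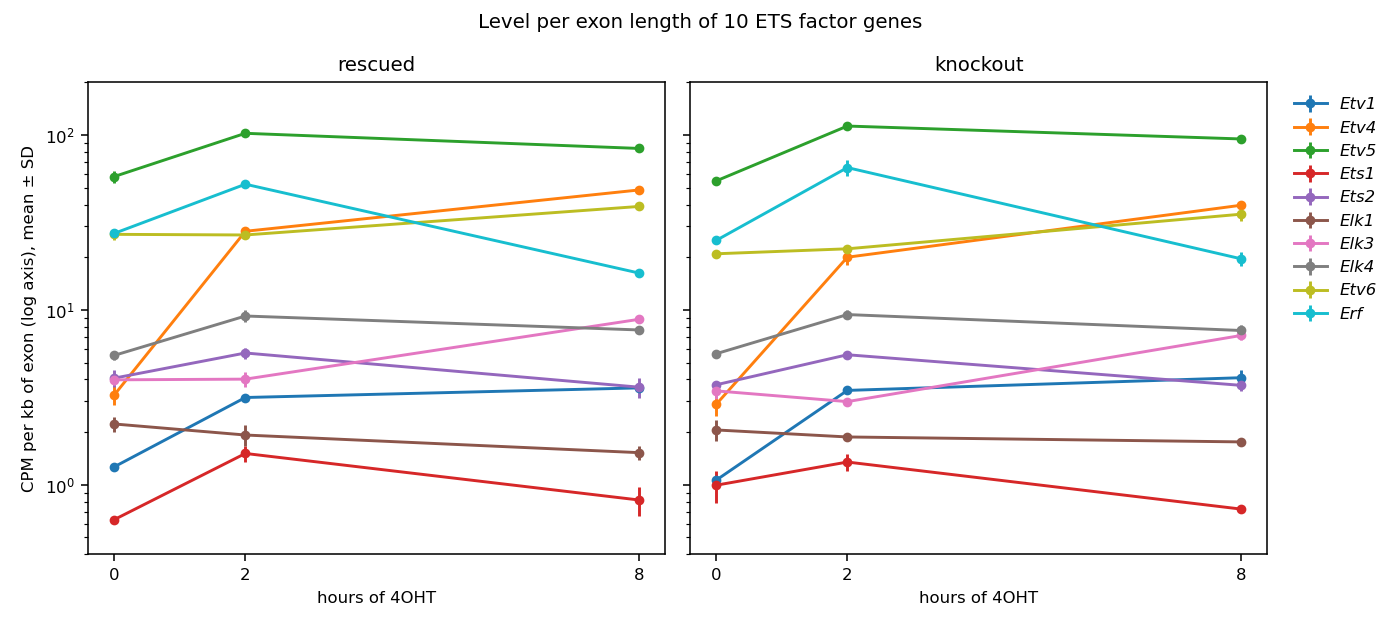
Level of each of the 10 genes, in TMM-scaled CPM per kilobase of exon on a log axis, against hours of 4OHT in rescued cells (left) and knockout cells (right); points are means and bars SDs over 3 clones. Etv4 rose from 3.26 to 48.5 CPM per kb in rescued cells, and Etv5 had the highest mean at every time in both panels.

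Within 2 h of ERK activation 7 of the 10 genes rose and none fell in rescued cells: Etv4, Etv1, Ets1, Erf, Etv5, Elk4 and Ets2, in falling order of log2 fold change. Across the 14128 genes tested 66.2% changed, 32.4% of them all being higher and 33.8% lower, at a Benjamini-Hochberg adjusted p under 0.05 by edgeR's quasi-likelihood test, the rule behind every rise or fall given here. The groups did not overlap for the same 7 members, against 68.8% of all genes. The median log2 fold change was 0.78 over the 10 members and -0.02 over all genes. By 8 h 6 members were higher than at 0 h (Etv4, Etv1, Elk3, Etv5, Etv6 and Elk4) and 2 were lower (Erf and Elk1), where 61.9% of all genes changed, 30.7% higher and 31.3% lower. The median was then 0.51 over the members and -0.01 over all genes. Between 2 and 8 h all 10 changed, 4 upwards (Elk3, Etv4, Etv6 and Etv1) and 6 downwards (Erf, Ets1, Ets2, Elk1, Etv5 and Elk4), where 61.0% of all genes changed, 30.7% higher and 30.2% lower. The groups did not overlap for 9 members at 8 h against 0 h and for 9 at 8 h against 2 h, against 66.5% and 65.9% of all genes. When libraries were scaled by their totals alone, 6 of the 10 passed for this step, 3 in each direction.

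Knockout cells gave the same number of calls in each response against 0 h, though not for all the same members at 8 h. At 2 h the same 7 members rose and none fell, where 66.6% of all genes changed, 31.5% higher and 35.2% lower. At 8 h the same 6 were higher and 2 lower (Erf and Ets1), where 57.8% changed, 28.2% higher and 29.6% lower. The median log2 fold change of the members was 0.66 at 2 h and 0.61 at 8 h, against -0.05 and -0.02 over all genes. Between 2 and 8 h 4 rose and 5 fell, where 57.1% of all genes changed, 29.4% higher and 27.7% lower, and Elk1 did not pass. The groups did not overlap for 6, 8 and 9 members in these comparisons, against 70.5%, 60.1% and 58.4% of all genes. Scaling by library totals alone moved the median of all genes to -0.33 at 2 h and -0.38 at 8 h, and 5 members were then higher and 2 lower at 2 h and 5 higher and 4 lower at 8 h. Under that scaling the share of rises among all called genes went from 48.9% to 31.9% in rescued cells at 2 h, from 50.4% to 61.2% between 2 and 8 h, and in knockout cells from 47.2% to 21.2% at 2 h and from 48.8% to 14.7% at 8 h. At 8 h against 0 h in rescued cells it went from 49.5% to 40.9%, and between 2 and 8 h in knockout cells from 51.5% to 43.8%.

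**Figure D2:**
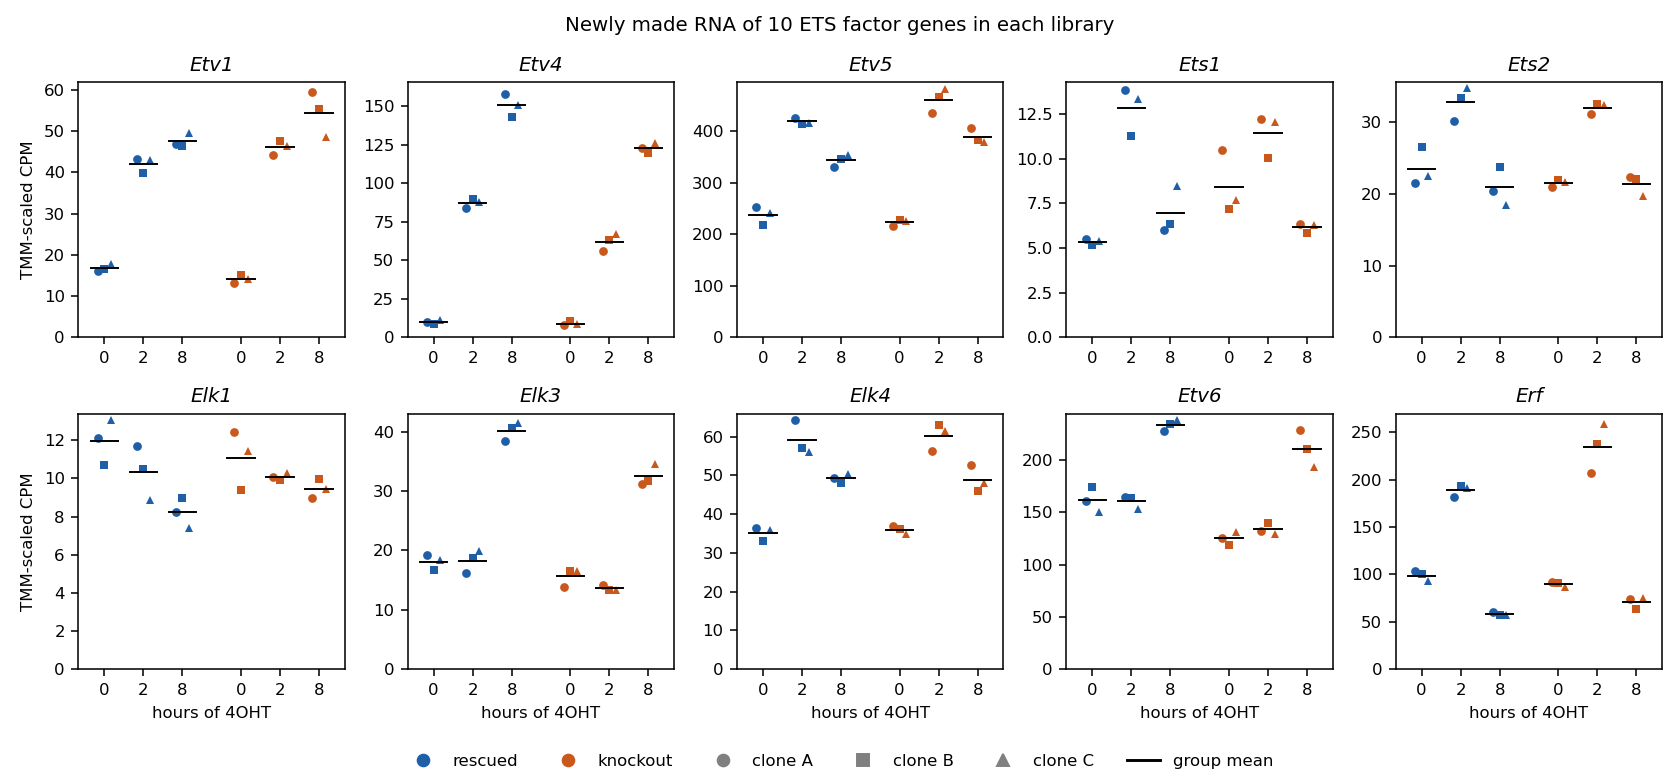
TMM-scaled CPM of each gene in each of the 18 libraries (linear axes from 0, points by clone, bars for the group mean) at 0, 2 and 8 h of 4OHT in rescued and knockout cells. Etv4 climbed at each time, Erf was highest at 2 h and lowest at 8 h, and Elk3 and Etv6 stood above their earlier levels only at 8 h.

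**Figure D3:**
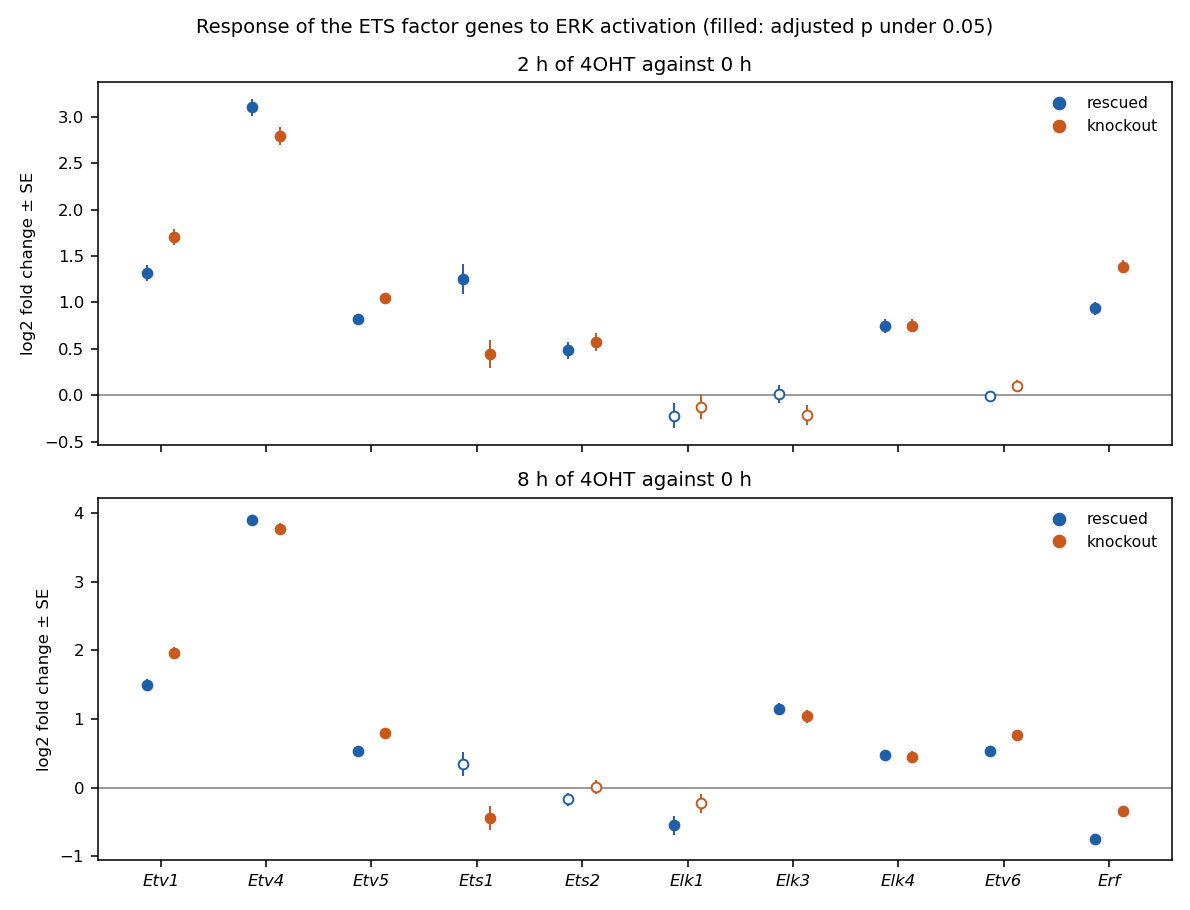
Log2 fold change ± SE of each gene at 2 h (top) and 8 h (bottom) against 0 h, in rescued and knockout cells; filled points passed an adjusted p under 0.05. At 2 h 7 genes in each cell state are filled and above 0.

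Etv4, a PEA3 activator (GRCm38 chr11:101769742-101785371, minus strand), had the largest fold change of the 10 genes in every response against 0 h. In rescued clones A, B and C it stood at 10.01, 8.91 and 11.4 CPM at 0 h, at 84.2, 89.8 and 88.1 CPM at 2 h, and at 158, 143 and 151 CPM at 8 h. Every library at a later time exceeded every library at an earlier one. The log2 fold change was 3.10 ± 0.092 (SE) at 2 h, which is 8.59-fold (edgeR adjusted p = 4.38e-23), and 3.89 ± 0.086 at 8 h, which is 14.8-fold (edgeR adjusted p = 3.1e-26). In knockout clones Etv4 stood at 7.81, 10.4 and 8.63 CPM at 0 h, 55.9, 63.1 and 67.4 CPM at 2 h and 123, 120 and 126 CPM at 8 h, again without overlap between times. Its response there was 6.92-fold at 2 h and 13.6-fold at 8 h. At 2 h and 8 h every knockout library was below every rescued library, with log2 differences of -0.49 ± 0.068 (edgeR adjusted p = 1.3e-06) and -0.30 ± 0.061 (edgeR adjusted p = 0.000315). At 0 h the groups overlapped and the difference was -0.17 ± 0.13 (95% interval -0.44 to 0.09). The test of the difference between the responses did not pass at 2 h, at -0.31 ± 0.15 (edgeR adjusted p = 0.188), or at 8 h, at -0.12 ± 0.15 (edgeR adjusted p = 0.628).

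Etv1, the second PEA3 gene (chr12:38779380-38870484, plus strand), reached most of its 8 h level by 2 h. Rescued clones A, B and C stood at 16.1, 16.6 and 17.8 CPM at 0 h, 43.1, 39.8 and 42.9 CPM at 2 h and 46.9, 46.4 and 49.5 CPM at 8 h. The later libraries did not overlap with those at 0 h, and the rise was 2.49-fold at 2 h (log2 1.32 ± 0.087) and 2.82-fold at 8 h (log2 1.50 ± 0.084). In knockout clones it stood at 13.1, 15.0 and 14.2 CPM at 0 h, 44.1, 47.6 and 46.5 CPM at 2 h and 59.5, 55.4 and 48.4 CPM at 8 h, rises of 3.26-fold and 3.89-fold. The further rise from 2 to 8 h, 0.18 ± 0.072 in rescued cells (edgeR adjusted p = 0.0314), lost its call without rescued clone B or C at 2 h or A or C at 8 h (edgeR adjusted p 0.0527 to 0.15), and that in knockout cells, 0.26, lost it without clone A at 8 h (0.17). The knockout response was larger by 0.39 ± 0.13 on the log2 scale at 2 h (edgeR adjusted p = 0.0394) and by 0.46 ± 0.13 at 8 h (edgeR adjusted p = 0.0101). The difference at 2 h lost its call in 8 of the 18 fits that left out 1 library (knockout A or C or rescued B or C at 0 h, knockout B or C or rescued B or C at 2 h; edgeR adjusted p 0.0526 to 0.117) and with DESeq2 (adjusted p = 0.0582). At 0 h knockout libraries were all below rescued ones, by -0.25 ± 0.10 without passing (edgeR adjusted p = 0.0945). At 8 h knockout cells were higher by 0.21 ± 0.072 (edgeR adjusted p = 0.0232), with overlapping groups, and the call was lost without knockout clone A (0.13, edgeR adjusted p = 0.237) or B or rescued clone A or B at 8 h (edgeR adjusted p 0.0601 to 0.0875) and with DESeq2 (adjusted p = 0.0581). The value was 0.32 without the 3 libraries rich in the abundant genes, which left knockout clone A alone at 8 h. With scaling by library totals alone it was -0.04.

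Etv5 (chr16:22381309-22439719, minus strand), the member with most RNA per kilobase of exon, rose by less and peaked at 2 h. Rescued clones A, B and C stood at 253, 218 and 241 CPM at 0 h, 427, 415 and 417 CPM at 2 h and 331, 347 and 354 CPM at 8 h, and the 3 times did not overlap. The rise was 1.77-fold at 2 h (log2 0.82 ± 0.057) and 1.45-fold at 8 h (log2 0.53 ± 0.057), and the fall from 2 to 8 h was -0.29 ± 0.055 (edgeR adjusted p = 4.14e-05). Knockout clones stood at 217, 229 and 227 CPM at 0 h, 437, 467 and 482 CPM at 2 h and 406, 383 and 380 CPM at 8 h. Their rise was 2.06-fold at 2 h and 1.74-fold at 8 h. At 2 h every knockout library was above every rescued one, by 0.14 ± 0.055 without passing (edgeR adjusted p = 0.0674), and without the 3 libraries rich in the abundant genes the difference was 0.18 and passed (edgeR adjusted p = 0.00461). It also passed without rescued clone B at 0 h, knockout clone A at 2 h or knockout clone A at 8 h (0.14 to 0.17). At 8 h knockout cells were higher by 0.18 ± 0.056 (edgeR adjusted p = 0.0121), again without overlap, a call that was lost without rescued clone A at 8 h (edgeR adjusted p = 0.0776). The 8 h response was larger in knockout cells by 0.27 ± 0.080 (edgeR adjusted p = 0.0206), and the 2 h response by 0.22 ± 0.080 without passing (edgeR adjusted p = 0.0616; DESeq2 gave 0.24, adjusted p = 0.02). The larger 8 h response lost its call without knockout clone A at 0 h, rescued clone A at 0 h or rescued clone A at 8 h (edgeR adjusted p 0.0535 to 0.0638). With scaling by library totals alone the 8 h difference was -0.08 and the difference of the 8 h responses -0.02, where the median of all genes was -0.26 and -0.30. Within the PEA3 group, Etv4 was lower in knockout cells at 8 h while Etv1 and Etv5 were higher. With library totals alone these values were -0.55, -0.04 and -0.08 in the same order, all negative. Relative to the median of all genes they were -0.30, 0.21 and 0.18. Subtracting that median largely puts back the centring that TMM applies, so these directions cannot serve as a separate check.

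The ternary complex factors did not move as a group. Elk4 (chr1:132007607-132032612, plus strand), an activator that partners Srf, stood at 36.5, 33.0 and 36.0 CPM in rescued clones A, B and C at 0 h, 64.2, 57.2 and 55.9 CPM at 2 h and 49.4, 47.9 and 50.2 CPM at 8 h. It rose 1.68-fold at 2 h (log2 0.74 ± 0.073) and was 1.40-fold higher at 8 h, with no overlap between the 3 times. Knockout clones stood at 37.0, 36.1 and 34.8 CPM, then 56.3, 62.9 and 61.5 CPM, then 52.6, 45.9 and 48.0 CPM, a 1.68-fold rise at 2 h and 1.37-fold at 8 h. Scaled by library totals alone, the knockout value at 8 h was 0.09 (edgeR adjusted p = 0.598) and the rescued fall from 2 to 8 h -0.18 (edgeR adjusted p = 0.313), and neither passed. The difference between knockout and rescued cells came to 0.03, 0.03 and 0.00 over the 3 times, and its 95% interval at 2 h ran from -0.10 to 0.17. For the 2 h response the difference between cell states was 0.00, with a 95% interval of -0.20 to 0.20. Mfsd4a overlaps Elk4 on the opposite strand, and use of strand in the counting is not stated.

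Elk3 (chr10:93247414-93311135, minus strand), which can act as a repressor until ERK phosphorylates it, changed late. It stood at 19.3, 16.7 and 18.4 CPM in rescued clones at 0 h, 16.2, 18.8 and 19.9 CPM at 2 h and 38.4, 40.6 and 41.5 CPM at 8 h. The first 2 times overlapped and the libraries at 8 h stood above both, 2.20-fold over 0 h (log2 1.14 ± 0.089, edgeR adjusted p = 1.4e-12). In knockout clones it stood at 13.9, 16.6 and 16.5 CPM at 0 h, 14.2, 13.3 and 13.3 CPM at 2 h and 31.2, 31.6 and 34.6 CPM at 8 h, and the rise at 8 h was 2.06-fold. The knockout value at 2 h, -0.21, passed only when clone A at 0 h was left out (-0.29, edgeR adjusted p = 0.0303) or libraries were scaled by their totals alone (-0.49, edgeR adjusted p = 0.00661). Knockout libraries were all below rescued ones at 0, 2 and 8 h. At 0 h the difference was -0.21 ± 0.10 (edgeR adjusted p = 0.172), followed by -0.43 ± 0.11 at 2 h (edgeR adjusted p = 0.00265) and -0.31 ± 0.084 at 8 h (edgeR adjusted p = 0.0045). The responses differed by -0.22 ± 0.15 at 2 h and -0.10 ± 0.13 at 8 h and did not pass. Cdk17 overlaps Elk3 on the opposite strand, and reads of these genes cannot be told apart without strand.

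Elk1 (chrX:20933395-20950608, minus strand), the factor that contacts Med23, had 45 to 126 counts per library. In rescued clones it stood at 12.1, 10.7 and 13.1 CPM at 0 h, 11.7, 10.5 and 8.88 CPM at 2 h and 8.23, 8.98 and 7.43 CPM at 8 h. The groups at 0 and 8 h did not overlap, and the fall was -0.55 ± 0.13 (edgeR adjusted p = 0.000718). The part of it after 2 h, -0.33 ± 0.14 (edgeR adjusted p = 0.0378), lost its call without rescued clone A or B at 2 h or A or C at 8 h (edgeR adjusted p 0.078 to 0.19) and with DESeq2 (adjusted p = 0.0764). In knockout clones it stood at 12.4, 9.39 and 11.4 CPM, then 10.1, 9.92 and 10.3 CPM, then 8.97, 9.99 and 9.43 CPM, and the change at 8 h was -0.23 ± 0.14 without passing (edgeR adjusted p = 0.168). The difference between these responses was 0.32 ± 0.20 and did not pass (95% interval -0.06 to 0.71). Uxt overlaps Elk1 on the same strand.

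Ets2 and Ets1, activators that ERK phosphorylates, rose at 2 h and had fallen back by 8 h. Ets2 (chr16:95702075-95721051, plus strand) stood at 21.5, 26.6 and 22.5 CPM in rescued clones at 0 h, 30.2, 33.4 and 34.7 CPM at 2 h and 20.5, 23.8 and 18.4 CPM at 8 h. The 2 h libraries were above all others, by 1.40-fold over 0 h (log2 0.48 ± 0.093), and the change at 8 h was -0.17 ± 0.097 without passing, and -0.26 with a call when clone B at 8 h was left out (edgeR adjusted p = 0.0288). Knockout clones stood at 21.0, 22.0 and 21.6 CPM, then 31.1, 32.5 and 32.4 CPM, then 22.4, 22.1 and 19.7 CPM. The rise at 2 h was 1.49-fold, and the difference between knockout and rescued cells lay between -0.12 and 0.06 over the 3 times, without a call. With scaling by library totals alone the rise at 2 h did not pass in rescued cells (0.32, edgeR adjusted p = 0.065) or knockout cells (0.29, edgeR adjusted p = 0.0974). The value of knockout cells at 8 h against 0 h was then -0.35 (edgeR adjusted p = 0.0493), where the median of all genes was -0.38.

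Ets1 (chr9:32636221-32757820, plus strand) had the fewest reads, 30 to 120 counts per library, and the widest errors. It stood at 5.51, 5.15 and 5.40 CPM in rescued clones at 0 h, 13.8, 11.3 and 13.3 CPM at 2 h and 6.01, 6.32 and 8.47 CPM at 8 h. The rise at 2 h was 2.39-fold (log2 1.26 ± 0.16, edgeR adjusted p = 7.53e-08), and the value at 8 h, 0.34 ± 0.18, did not pass unless clone A at 8 h was left out (0.47, edgeR adjusted p = 0.047). In the knockout clones (A, B, C) Ets1 stood at 10.5, 7.17 and 7.66 CPM at 0 h, 12.2, 10.04 and 12.1 CPM at 2 h and 6.35, 5.83 and 6.29 CPM at 8 h. Clone A at 0 h overlapped with the libraries at 2 h. The knockout response was 0.44 ± 0.15 at 2 h (edgeR adjusted p = 0.0112) and -0.44 ± 0.18 at 8 h (edgeR adjusted p = 0.0325). Before 4OHT every knockout library was above every rescued library, by 0.65 ± 0.18, which is 1.56-fold (edgeR adjusted p = 0.011). Without knockout clone A at 0 h this was 0.46 and did not pass (edgeR adjusted p = 0.105). The responses differed by -0.81 ± 0.23 at 2 h (edgeR adjusted p = 0.0137) and -0.79 ± 0.25 at 8 h (edgeR adjusted p = 0.0291). Without that clone they differed by -0.63 (edgeR adjusted p = 0.0731) and -0.60 (edgeR adjusted p = 0.114). Primitive endoderm markers were also higher in knockout cells at 0 h (3 of 4 tested), and their part in the Ets1 value was not tested. The 2 h rise in knockout cells lost its call without clone B at 0 h (0.33, edgeR adjusted p = 0.0824) or clone C at 2 h (0.39, edgeR adjusted p = 0.05). The fall at 8 h lost its call without knockout clone A at 0 h (-0.26), clone A at 8 h (-0.48) or clone B at 8 h (-0.41). It was -0.39 without the 3 libraries rich in the abundant genes, which left knockout clone A alone at 8 h. The 8 h difference of the responses also lost its call without rescued clone B or C at 0 h, knockout clone B at 8 h or rescued clone C at 8 h (-0.63). Without those 3 libraries together it was -0.74.

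Of the repressors, Erf (chr7:25242561-25250761, minus strand) turned from a rise at 2 h to a fall at 8 h. Rescued clones A, B and C held 103, 100 and 92.7 CPM of it at 0 h, 182, 194 and 191 CPM at 2 h and 60.8, 57.3 and 57.7 CPM at 8 h, with no overlap between times. Its log2 fold change was 0.94 ± 0.067 at 2 h (1.91-fold, edgeR adjusted p = 1.41e-13) and -0.75 ± 0.072 at 8 h (edgeR adjusted p = 1.74e-10). Knockout clones stood at 91.9, 90.9 and 87.2 CPM, then 207, 238 and 259 CPM, then 74.0, 63.2 and 74.8 CPM. The response there was 1.39 ± 0.066 at 2 h, which is 2.62-fold, and -0.35 ± 0.074 at 8 h. Knockout libraries were all above rescued ones at both times after 4OHT, by 0.32 ± 0.062 at 2 h (edgeR adjusted p = 0.000205) and 0.27 ± 0.076 at 8 h (edgeR adjusted p = 0.00719), after -0.13 ± 0.07 at 0 h without passing. The response was higher in knockout cells by 0.45 ± 0.094 at 2 h (edgeR adjusted p = 0.000909) and by 0.40 ± 0.10 at 8 h (edgeR adjusted p = 0.00715). Without the 3 libraries rich in the abundant genes the difference between knockout and rescued cells was 0.41 at 2 h. At 8 h, where knockout clone A alone was then left, it was 0.33. Without knockout clone A at 8 h the value at 8 h was 0.22 (edgeR adjusted p = 0.0511). With scaling by library totals alone it was 0.23 at 2 h and 0.01 at 8 h and passed at neither.

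Etv6 (chr6:134035700-134270158, plus strand), the other repressor, was high before 4OHT and changed late. Rescued clones stood at 161, 174 and 150 CPM at 0 h, 164, 164 and 153 CPM at 2 h and 228, 235 and 238 CPM at 8 h. The change at 2 h was -0.01 (95% interval -0.13 to 0.11), and the rise at 8 h was 1.44-fold (log2 0.53 ± 0.060). Knockout clones stood at 125, 119 and 131 CPM, then 132, 140 and 130 CPM, then 229, 210 and 193 CPM, and the rise at 8 h was 1.69-fold. Every knockout library was below every rescued one at 0 and 2 h, and at 8 h the groups overlapped. At 0 h the difference was -0.37 ± 0.062 (edgeR adjusted p = 8.55e-05), followed by -0.26 ± 0.062 at 2 h (edgeR adjusted p = 0.00184) and -0.14 ± 0.059 at 8 h (edgeR adjusted p = 0.0731), which passed without knockout clone A at 8 h (-0.21, edgeR adjusted p = 0.0077). The 8 h response was higher in knockout cells by 0.23 ± 0.086 without passing (edgeR adjusted p = 0.0634). The difference was 0.35 without the 3 libraries rich in the abundant genes, which left knockout clone A alone at 8 h. It passed, at 0.27 to 0.29, without knockout clone C at 0 h, rescued clone C at 0 h or knockout clone C at 8 h. The predicted genes Gm43982 and Gm43984 and the gene 1700051K13Rik overlap Etv6.

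Across the family the cells without Med24 differed from rescued cells in 2 to 5 members at each time and by at most 1.56-fold. At 0 h 1 member was higher (Ets1) and 1 lower (Etv6), where 16.4% of all genes differed, 6.81% higher and 9.64% lower. At 2 h 1 was higher (Erf) and 3 lower (Etv4, Elk3 and Etv6), where 23.7% of all genes differed, 10.8% higher and 12.9% lower. At 8 h 3 were higher (Erf, Etv1 and Etv5) and 2 lower (Elk3 and Etv4), where 31.6% differed, 14.5% higher and 17.1% lower. The groups did not overlap for 5, 6 and 4 members at these times, against 33.0%, 37.8% and 40.3% of all genes. The median log2 difference over the 10 was -0.13, -0.03 and 0.03, beside 0.01, 0.00 and -0.00 over all genes. Elk4, Ets2 and Elk1 passed at no time. With scaling by library totals alone neither Ets1 (edgeR adjusted p = 0.053) nor Etv6 (edgeR adjusted p = 0.199) passed at 0 h, 2 lower members passed at 2 h and 3 lower ones at 8 h, as the share of rises among all called genes went from 41.4% to 50.7% at 0 h, from 45.7% to 18.4% at 2 h and from 45.8% to 8.17% at 8 h. These comparisons share libraries with the responses above.

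**Figure D4:**
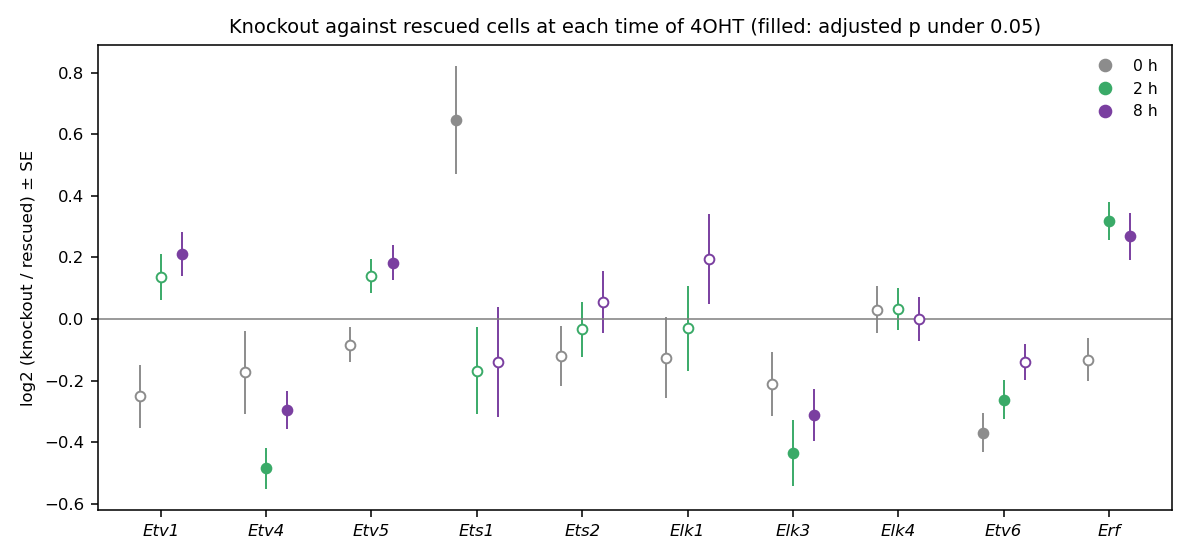
Log2 difference ± SE between knockout and rescued cells for each gene at 0, 2 and 8 h of 4OHT; filled points passed an adjusted p under 0.05. Erf is above 0 and Etv4 and Elk3 are below 0 at 2 and 8 h, and the values lie between -0.49 and 0.65.

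For the difference between the knockout and rescued responses, 3 members passed at 2 h (Etv1 and Erf with a higher and Ets1 with a lower knockout response), where 13.2% of all genes passed, 6.60% higher and 6.60% lower. At 8 h 4 passed (Etv1, Erf and Etv5 higher, Ets1 lower), where 16.8% of all genes passed, 7.88% higher and 8.88% lower. With scaling by library totals alone 1 member passed at each time, Ets1, and higher values made up 57 of 589 called genes at 2 h, instead of 933 of 1866, and 6.15% at 8 h, instead of 47.0%. For the step from 2 to 8 h 0 members passed by edgeR and 0 by DESeq2, where 9.00% of all genes passed by edgeR, 4.38% higher and 4.61% lower. At an unadjusted p under 0.05 in edgeR 1 member did, Etv4, with a difference of 0.19 ± 0.091.

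The other ETS genes were followed as a list, which like the lists below was chosen with earlier results known. Of 18 listed genes 16 were in the table and 12 passed the filter, Etv2, Fli1, Fev and Elf5 being too low. In rescued cells 3 of the 12 rose (Etv3, Gabpa and Elf1) and 6 fell at 2 h, and 1 rose (Gabpa) and 6 fell at 8 h, with medians of -0.60 and -0.77 beside -0.02 and -0.01 over all genes. In knockout cells the same 3 rose and 5 fell (Elf3, Elf4, Ehf, Spi1 and Spib) at 2 h, and 1 rose (Gabpa) and 6 fell at 8 h. Without the 3 libraries rich in the abundant genes clone A alone is left there, so no recount without them is given. Of all genes 32.4% rose and 33.8% fell at 2 h in rescued cells, and 30.7% and 31.3% at 8 h. In knockout cells these shares were 31.5% and 35.2% at 2 h and 28.2% and 29.6% at 8 h. Scaled by library totals alone, 1 rose and 6 fell at 2 h and 0 rose and 9 fell at 8 h in knockout cells. Elf3, an epithelial ETS factor, fell by 2.14 on the log2 scale at 2 h in rescued cells, from 45.6 ± 5.9 to 10.3 ± 0.68 CPM (n = 3), and by 1.49 in knockout cells. Gabpa, a broadly expressed activator, rose by 0.57 ± 0.059 and 0.55 ± 0.058. Ehf fell by 2.00 and 2.83 at 2 h, at levels of 1.49 ± 0.47 CPM or below in rescued cells. Spic, known in macrophages, stood at 3.59 ± 0.64 CPM in rescued and 4.54 ± 0.79 CPM in knockout cells at 0 h and at 0.476 ± 0.026 and 3.64 ± 0.36 CPM at 8 h. Its 8 h responses differed by 2.58 ± 0.47 (edgeR adjusted p = 0.00022). Between knockout and rescued cells 16.4%, 23.7% and 31.6% of all genes differed at 0, 2 and 8 h. Of the 12, 0 passed at 0 h by edgeR and 0 by DESeq2, with 3 at an unadjusted p under 0.05 in edgeR. At 2 h Elf3 and Spic were higher (0.61 and 1.47), and at 8 h Spi1 and Spic were higher (1.76 and 2.94) and Elf2 was lower (-0.28). The 8 h level of Spi1 in knockout cells was 3.33 CPM in clone A, 0.333 in clone B and 0.838 in clone C, beside 0.719, 0.506 and 0.232 CPM in rescued ones, so the groups overlapped, and without knockout clone A the difference was 0.07 (edgeR adjusted p = 0.96). Without knockout clone A at 2 h that of Elf3 was 0.36 (edgeR adjusted p = 0.107). The knockout falls of Elf4, Spi1 and Spib at 2 h also lost their calls when 1 or another library was left out. So did the rescued rise of Gabpa at 8 h and the rescued falls of Erg at 2 and 8 h and of Elf4 at 2 h. The same was true of the knockout falls of Etv3, Elf2 and Spib at 8 h.

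Of 18 listed symbols for partners and regulators of ETS proteins, which include alternative names of some genes, 15 were in the table and all 15 passed the filter. In rescued cells 7 rose and 4 fell (Mkl1, Det1, Trib2 and Gabpb2) at 2 h, and 3 rose (Ep300, Trib1 and Trib2) and 4 fell (Mkl1, Crebbp, Cic and Gabpb2) at 8 h. In knockout cells 9 rose and 4 fell (Atxn1, Det1, Trib2 and Gabpb2) at 2 h, and 5 rose (Ep300, Cop1, Trib1, Trib2 and Gabpb1) and 3 fell (Mkl1, Crebbp and Cic) at 8 h. Over all genes 32.4% rose and 33.8% fell at 2 h in rescued cells, and 30.7% and 31.3% at 8 h. The shares in knockout cells were 31.5% and 35.2% at 2 h and 28.2% and 29.6% at 8 h. Scaled by library totals alone, 3 of the list rose and 4 fell at 2 h in rescued cells. Under that scaling 1 rose and 4 fell at 2 h and 2 rose and 9 fell at 8 h in knockout cells. Trib1, an adaptor that brings the ubiquitin ligase Cop1 to its substrates, stood at 17.4, 18.1 and 16.5 CPM in rescued clones at 0 h, 65.0, 75.1 and 70.7 CPM at 2 h and 131, 134 and 136 CPM at 8 h. In knockout clones it stood at 17.0, 14.2 and 17.3 CPM, then 22.6, 23.9 and 25.9 CPM, then 60.7, 62.4 and 61.8 CPM. The groups overlapped at 0 h and parted after it. At 0 h the difference was -0.10 ± 0.097, followed by -1.54 ± 0.074 at 2 h and -1.11 ± 0.062 at 8 h, and the 2 h responses differed by -1.43 ± 0.12 (edgeR adjusted p = 5.18e-10). Ep300, a histone acetyltransferase and coactivator, rose by 0.49 ± 0.049 and 0.54 ± 0.049 at 2 h in rescued and knockout cells, and Det1, a partner of Cop1, fell by 1.27 and 1.38. Cic, the repressor of the PEA3 genes, fell by 0.70 at 8 h in rescued cells and by 0.63 in knockout cells. Between knockout and rescued cells 16.4%, 23.7% and 31.6% of all genes differed at 0, 2 and 8 h. In this list Atxn1, a partner of Cic, was higher (0.44) and Mkl1, Mkl2 and Trib2 were lower at 0 h. At 2 h Trib1 was lower, and at 8 h Atxn1 was higher (0.52) and Mkl1, Mkl2, Trib1 and Trib2 (-1.55) were lower. Scaled in that way 0 of the 15 passed at 0 h by edgeR, 2 at an unadjusted p under 0.05, and 5 were lower at 8 h, while DESeq2 with its own scaling called 3 at 0 h, all lower. Each of the 4 calls at 0 h was lost when 1 or another library was left out, as were those of Mkl2 and Atxn1 at 8 h (0.32 for Atxn1 without knockout clone A, edgeR adjusted p = 0.17). The same held for the 8 h responses of Gabpb2 in rescued cells and of Cop1, Gabpb1 and Crebbp in knockout cells. It also held for the 2 h rise of Atxn1l in rescued cells.

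Genes known as targets of the ternary complex factors rose in rescued cells, 10 of 10 at 2 h and 9 of 10 at 8 h, the exception being Srf, and in knockout cells 9 rose and 1 fell (Mcl1, which encodes a survival factor) at 2 h and 8 rose at 8 h, all but Srf and Egr2. Of all genes 32.4% and 30.7% rose at 2 and 8 h in rescued cells, and 31.5% and 28.2% in knockout cells. By library totals alone 9 of 10 targets rose at 2 h in rescued cells, and 8 and 6 rose at 2 and 8 h in knockout cells. In knockout against rescued cells 1 of the 10 was lower at 0 h (Egr1), 9 were lower at 2 h (all but Srf) and 8 at 8 h (all but Srf and Fosb, and without knockout clone B not Ier2), with medians of -1.12 at 2 h and -0.72 at 8 h. Over the same comparisons the ETS members had medians of -0.03 and 0.03. Lower values made up 9.64%, 12.9% and 17.1% of all genes at 0, 2 and 8 h. At 2 h the knockout response was lower for 5 targets (without knockout clone C at 0 h not Fos), higher for 1 and not called for 4. At 8 h it was lower for 2, higher for 1 and not called for 7. Of all genes 6.60% passed in each direction at 2 h, and 8.88% lower and 7.88% higher at 8 h. A lower level was therefore not always a lower response. Egr1, an immediate early zinc finger factor, stood at 44.6 ± 2.9 CPM in rescued and 16.5 ± 1.5 CPM in knockout cells at 0 h. It differed by -1.44 at 0 h and by -0.43 ± 0.088 at 2 h, so its 2 h response was higher in knockout cells, by 1.01. Junb, a subunit of AP-1, rose by 3.22 ± 0.070 at 2 h in rescued and 1.97 ± 0.072 in knockout cells, and Fos, its partner, by 5.30 ± 0.12 and 4.33 ± 0.14. Egr3, another zinc finger factor, had no counts in rescued libraries at 0 h and stood at 194 ± 11 CPM in rescued and 75.2 ± 12 CPM in knockout cells at 2 h. Srf, the partner of these factors and a member of both lists, rose by 0.52 ± 0.095 and 0.60 ± 0.092 at 2 h and differed by 0.15 ± 0.089 between knockout and rescued cells, which did not pass.

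Genes known to answer to Cic, to PEA3 factors or to FGF and ERK signalling, among them feedback inhibitors of the pathway, gave 6 rises and 1 fall among 8 at 2 h and 7 rises at 8 h in rescued cells. Of all genes 32.4% and 30.7% rose at 2 and 8 h in rescued cells, and 31.5% and 28.2% in knockout cells. In knockout cells 6 of the list rose and 1 fell at each time. The fall was that of Ccnd1, which encodes cyclin D1, by 1.65 at 2 h in rescued cells and by 1.51 at 2 h and 1.48 at 8 h in knockout cells. Between knockout and rescued cells Dusp4 (0.74) and Spry2 (0.37) were higher and 4 genes (Spry4, Spred1, Spred2 and Ccnd1) were lower at 0 h. At 2 h 6 were lower (all but Spry2 and Ccnd1), and at 8 h all 8 were, with medians of -0.34 at 2 h and -0.57 at 8 h. Lower values made up 9.64%, 12.9% and 17.1% of all genes at 0, 2 and 8 h. Without any 1 of 4 libraries at 8 h (knockout clone A or B, rescued clone A or B) Dusp4 lost its call. Phlda1 rose by 6.27 ± 0.10 in rescued and 3.95 ± 0.11 in knockout cells at 2 h. Dusp4 and Dusp6, which dephosphorylate ERK, rose by 3.32 ± 0.076 and 2.10 ± 0.071 in rescued cells and by 2.23 ± 0.070 and 1.71 ± 0.070 in knockout cells. Spry4, a receptor feedback inhibitor, rose by 4.29 ± 0.080 and 4.44 ± 0.084, and was lower in knockout cells at all 3 times, with log2 differences of -1.07 ± 0.088, -0.91 ± 0.068 and -1.14 ± 0.068.

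**Figure D5:**
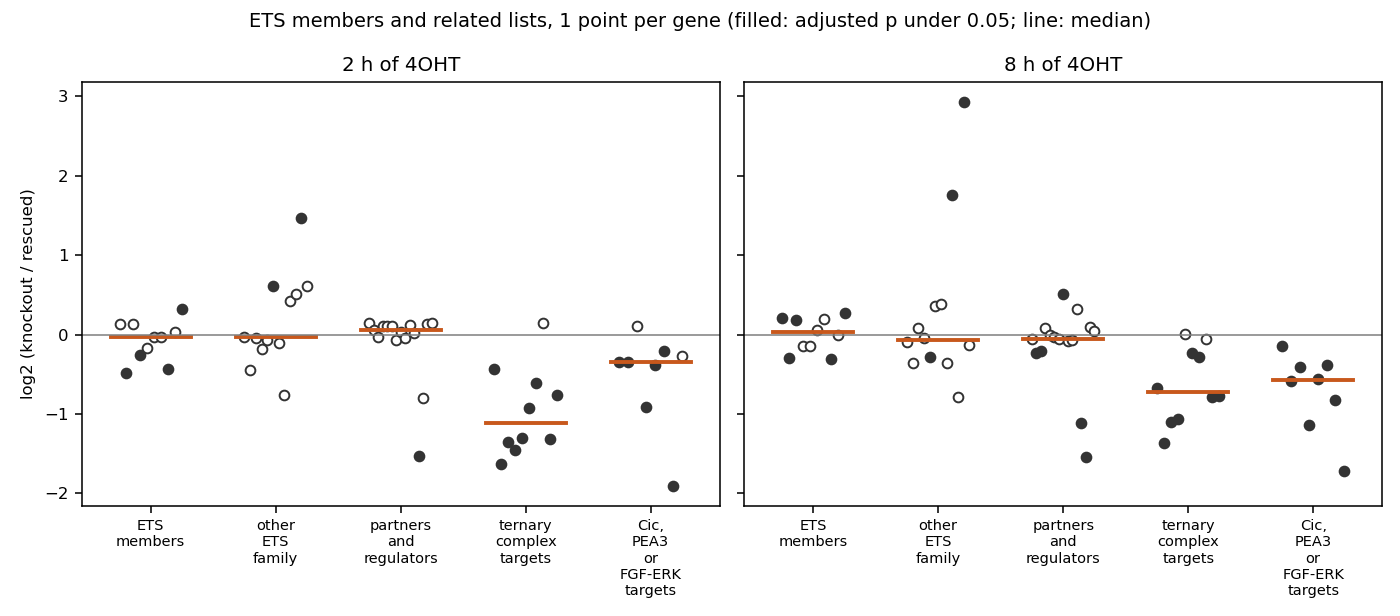
Log2 difference between knockout and rescued cells at 2 h (left) and 8 h (right) of 4OHT, 1 point per gene, for the 10 ETS members, other ETS family genes, partners and regulators, targets of ternary complex factors, and genes that answer to Cic, PEA3 factors or FGF and ERK; filled points passed an adjusted p under 0.05 and lines are medians. At 2 h the members' median is -0.03 and that of the ternary complex targets -1.12.

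Across the 18 libraries the patterns of the members fell into several shapes, described by Pearson's r of log2 CPM over libraries that share 6 group levels. Etv1 and Etv4 ran together (r = 0.97), as did Etv5 and Elk4 (r = 0.97), Etv6 and Elk3 (r = 0.92) and Ets2 and Erf (r = 0.91). Elk3 and Erf ran in opposite directions (r = -0.77), as did Etv4 and Elk1 (r = -0.71). Among 13367 other tested genes, predicted models left out, the 3 most like Etv4 were Baz1a (r = 0.99), Tiparp and Epb41l2, and the 3 most like Etv1 were Dnaja2, Dab1 and Wdr43. Fubp1, Nup153 and Cdk17 were nearest to Etv5, and Hspbap1, Itpk1 and Grin2a to Etv6. Cdr2, Nup50 and Pogz were nearest to Ets2, and Incenp, Cdca2 and Mier3 to Erf. The likeness was lowest for the genes with the fewest reads, at 0.92 for Ets1 with Mbd6, before Tgfb1i1 and Sowahb, and at 0.84 for Elk1 with Gon4l, before Agfg1 and Sdha.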

How the data were processed

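Newly made RNA, labelled with ethynyl uridine and captured by click chemistry, was measured in 18 libraries. The authors deposited a table of whole-number read counts per gene symbol, not normalized. Per the submitters' processing notes STAR, featureCounts, DESeq and the mm10 genome were used. Tool versions, the annotation and the use of strand or introns in counting could not be taken from the sources used here, so overlapping genes may share reads.

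The deposited counts were filtered (filterByExpr), scaled by TMM and fitted in edgeR 4.0.16 (R 4.3.3) with a quasi-likelihood model of 6 group means over all 18 libraries. The 12 contrasts were adjusted by Benjamini-Hochberg over 14128 genes, and an adjusted p under 0.05 was called. The SE is the absolute log2 fold change over the square root of F. Levels per length divide CPM by the exon union of GENCODE M21 (GRCm38). Promoters are RefSeq's for GRCm38.p6. The tests were tested on simulated data. A count of 0 still allows 3 counts in a library, 0.196 to 0.629 CPM here. Without molecular identifiers such limits cover counting error only. No pair of replicates agreed within sampling noise (smallest chi-square per degree of freedom 1.52).

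The members and lists were chosen with earlier results of these data known. All 10 members were named, in lists the 4 genes with the smallest p for the average of the 4 responses against 0 h, and for likeness the 3 genes of highest r (those of Elk3 and Elk4 are not reported here). A gene named beyond this rule (single markers of cell types, Mcl1, Srf, Ccnd1 and genes named to spell out a small count) was chosen after its values were seen. Med24 was named as the check of the labels.

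The labels give the clone letters A, B and C in every group, and the series describes the same cells kept with or without doxycycline, so same-letter libraries were taken as the same clone. As a check, each library's deviation from its group mean was correlated across genes with those of the other groups. The mean was 0.0164 within a letter (range -0.101 to 0.0826) and -0.00817 between letters. Of the 3 letters the own letter gave the best value for 15 of 18 libraries. This check took groups of the same cell state together with those of the other. It therefore cannot show that knockout and rescued libraries of a letter are the same clone, nor tell clone from preparation. Alternatives were DESeq2's size factors, library totals alone, DESeq2 1.42.0, no filter, the clone as a replicate block, only the groups compared, leaving out each library, and leaving out the 3 libraries rich in the abundant genes. The recounts of the gene lists under other scalings and with libraries left out were added after seeing the data.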

Additional observations from a re-analysis of the deposited data

Results flagged for a closer look

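A test of the difference between the knockout and rescued responses (edgeR interaction contrast) set apart 7 values. At 2 h of 4OHT the log2 response was higher in knockout cells for Etv1, by 0.388 (3.26-fold against 2.49-fold), and for Erf, by 0.451 (2.62-fold against 1.91-fold), and lower for Ets1, with a difference of -0.815 (1.36-fold against 2.39-fold). At 8 h it was higher in knockout cells for Etv1, by 0.463, and for Etv5, by 0.267, and the fall of Erf was smaller, with a difference of 0.400. For Ets1 the difference at 8 h was -0.786, from a value of -0.44 in knockout and 0.34 in rescued cells. Clone A of the knockout cells at 0 h, at 10.5 CPM against 7.17 and 7.66 CPM in clones B and C, carries part of both Ets1 values, which were -0.63 and -0.60 without it and did not pass.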

How the results depend on the processing

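The 120 values (10 members in 12 comparisons) were recomputed under 25 alternatives, 18 of which left out 1 library. Of 3000 recomputed values 2829 (94.3%) kept their direction and their side of the threshold, 68 lost a call and 29 gained one. The sign changed in 74, of which 70 passed the threshold in neither fit (42 with 1 library left out, 18 with scaling by library totals alone, 10 otherwise). The 4 that passed in one of the fits all came with scaling by library totals alone: Ets2 in knockout cells at 8 h against 0 h (-0.354), Etv1 and Etv5 in knockout against rescued cells at 8 h (-0.0430 and -0.0756) and Etv5 in the difference of the 8 h responses (-0.0246). This scaling moved the median of all genes to -0.381, -0.257 and -0.297 in these comparisons. Under it the number of members called fell from 10 to 6 between 2 and 8 h in rescued cells, from 2 to 0, from 4 to 2 and from 5 to 3 in knockout against rescued cells at 0, 2 and 8 h, and from 3 to 1 and from 4 to 1 in the differences of the 2 h and 8 h responses. The share of all genes called went from 61.0% to 46.2%, from 16.4% to 2.97%, from 23.7% to 11.8%, from 31.6% to 30.8%, from 13.2% to 4.17% and from 16.8% to 12.5% in the same order. Leaving out 1 library gave 1 to 2 members at 0 h and 3 to 5 at 8 h in knockout against rescued cells, and 1 to 4 and 2 to 5 in the differences of the 2 h and 8 h responses. The lowest of these counts came without knockout clone A at 0 h, except the 3 at 8 h, which came without rescued clone A at 8 h. The shares of all genes called in these fits are not given here. These counts therefore show how calls shifted, not whether members differed from other genes. With clone as a replicate block no call changed in any of the 120 values, and 7 members again rose at 2 h in rescued cells. Of all genes 66.1% then changed in that comparison, 49.0% of these upwards. DESeq2's test lost 6 calls and gained 2. Leaving out the 3 libraries rich in the abundant genes left knockout clone A alone at 8 h. Calls under it are in the totals above but are not listed here. The cause of these changes was not tested. Ets1 and Elk1 had 30 to 126 counts per library, with an SE of 0.131 to 0.25 on the log2 scale, against 0.055 to 0.080 for Etv5.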
